A study of Mus musculus with 12 samples.

Results

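A set of 10 genes was followed in skeletal muscle of diabetic mice, of which 4 code for lipocalins and 6 are transcripts typical of adipocytes. The lipocalins were Obp2a (the current symbol of Lcn13), Lcn2, Apod and Rbp4, and the adipocyte transcripts were Adipoq, Plin1, Cfd, Retn, Fabp4 and Lep. Members were the rows of the deposited value table whose probe set carries the symbol of one of these 10 genes. Of the 10, 9 had a named probe set, out of 23185 genes with 1 symbol, and Cfd was not analysed here.

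Lipocalins are small secreted proteins that fold into a barrel and carry hydrophobic molecules such as retinol, steroids, fatty acids and iron-binding siderophores. Adipocytes store triglyceride in a single large droplet coated by perilipin and release hormones, among them leptin, adiponectin and, in mice, resistin. Muscle fibres are not known as a main source of these hormones, while whole muscle also holds adipocytes between its fibres and on its surface, vessels, nerve, connective tissue and immune cells. In such bulk tissue, more cells of a type and more RNA per cell cannot be told apart.

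Gastrocnemius, the large calf muscle, had been hybridised to 12 single-colour arrays, 3 in each of 4 groups, and each array held RNA of a separately numbered animal. All animals, controls included, were db/db mice of the strain BKS.Cg-Dock7m +/+ Leprdb/J aged 12 weeks. Their leptin receptor does not work, and obesity and diabetes follow. Adenoviruses delivered the shRNA, a short hairpin RNA by which cells degrade a chosen transcript, and the tissue was taken 1 week later. With doses in units of 1e9 plaque-forming units, the control shRNA group (animals 18, 19 and 20) received 4 of control virus. The LCN13 shRNA group (animals 21, 22 and 23) received 2 of LCN13 virus and 2 of control virus, and the TSC22D4 shRNA group (animals 25, 26 and 27) received 2 of TSC22D4 virus and 2 of control virus. The TSC22D4+LCN13 shRNA group (animals 29, 30 and 32) received 2 of each target virus and no control virus. The 3 animals of a group had been picked out of 7 as representative, so their spread may understate that of all treated animals. The number of arrays limits the precision of every value.

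Levels are on a log2 scale, on which a difference of 1 is a doubling. Array against array, the levels of all genes correlated at 0.990 to 0.998. The 12 myofibre markers, among them Ckm, Acta1 and Myh4, were above background on all 12 arrays, with a mean level of 13.45 to 13.55. Tsc22d4, the other targeted transcript, measured 6.54, 6.43 and 6.79 in control animals and 6.87, 6.86 and 6.75 in animals labelled TSC22D4 shRNA. It measured 6.81, 7.00 and 6.62 in the LCN13 group and 7.01, 6.72 and 6.71 in the TSC22D4+LCN13 group. Arrays carrying a TSC22D4 label thus held no less of it, whether TSC22D4 shRNA (log2 difference 0.24, SE 0.121, limma adjusted p = 0.619) or TSC22D4+LCN13 shRNA (0.23, SE 0.121, limma adjusted p = 0.337). The groups are named below by the label of the virus given. Which tissues the viruses reached is not stated in the labels.

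One array stood apart in the adipocyte genes. The array of TSC22D4+LCN13 animal 30 held the highest of the 12 levels for 5 of the 5 measured adipocyte members, while 9.98% of all genes had their highest level there. The mean deviation of these 5 genes from their 12-array means was 0.78 on that array and between -0.41 and 0.22 on the other 11. Tests of the TSC22D4+LCN13 group and correlations between members or with lists are therefore given with and without this animal, and the nearest genes with it alone. Without it, animals 29 and 32 alone stand for that group. The array was picked by the levels of the adipocyte members, so their tests without it are description and not separate evidence.

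Obp2a (chr2:25697577-25703326 on GRCm38.p6, as all gene positions here), the LCN13 transcript itself and a lipocalin reported in liver and in the circulation of mice, was at the array floor. It measured 4.91, 4.96 and 4.91 in control animals 18, 19 and 20 and 4.93, 4.90 and 4.93 in LCN13 animals 21, 22 and 23. In TSC22D4 animals 25, 26 and 27 it measured 4.97, 4.91 and 4.92, and in TSC22D4+LCN13 animals 29, 30 and 32 4.91, 4.93 and 4.96. The 4 groups overlapped fully within a range of 0.07. Background was set on each array as the 95th percentile of 1354 olfactory and vomeronasal receptor genes, which muscle is not known to use, and lay between 5.24 and 5.30. Obp2a was below it on all 12 arrays, at the 5.33rd to 12.3rd percentile of the genes of its array, so these arrays allow no statement on LCN13 knockdown in muscle. The other 8 measured members were above background on all 12 arrays, and the same 8 were so with the limit at the 90th or 99th percentile of the receptor genes or at the median of all genes.

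**Figure D1:**
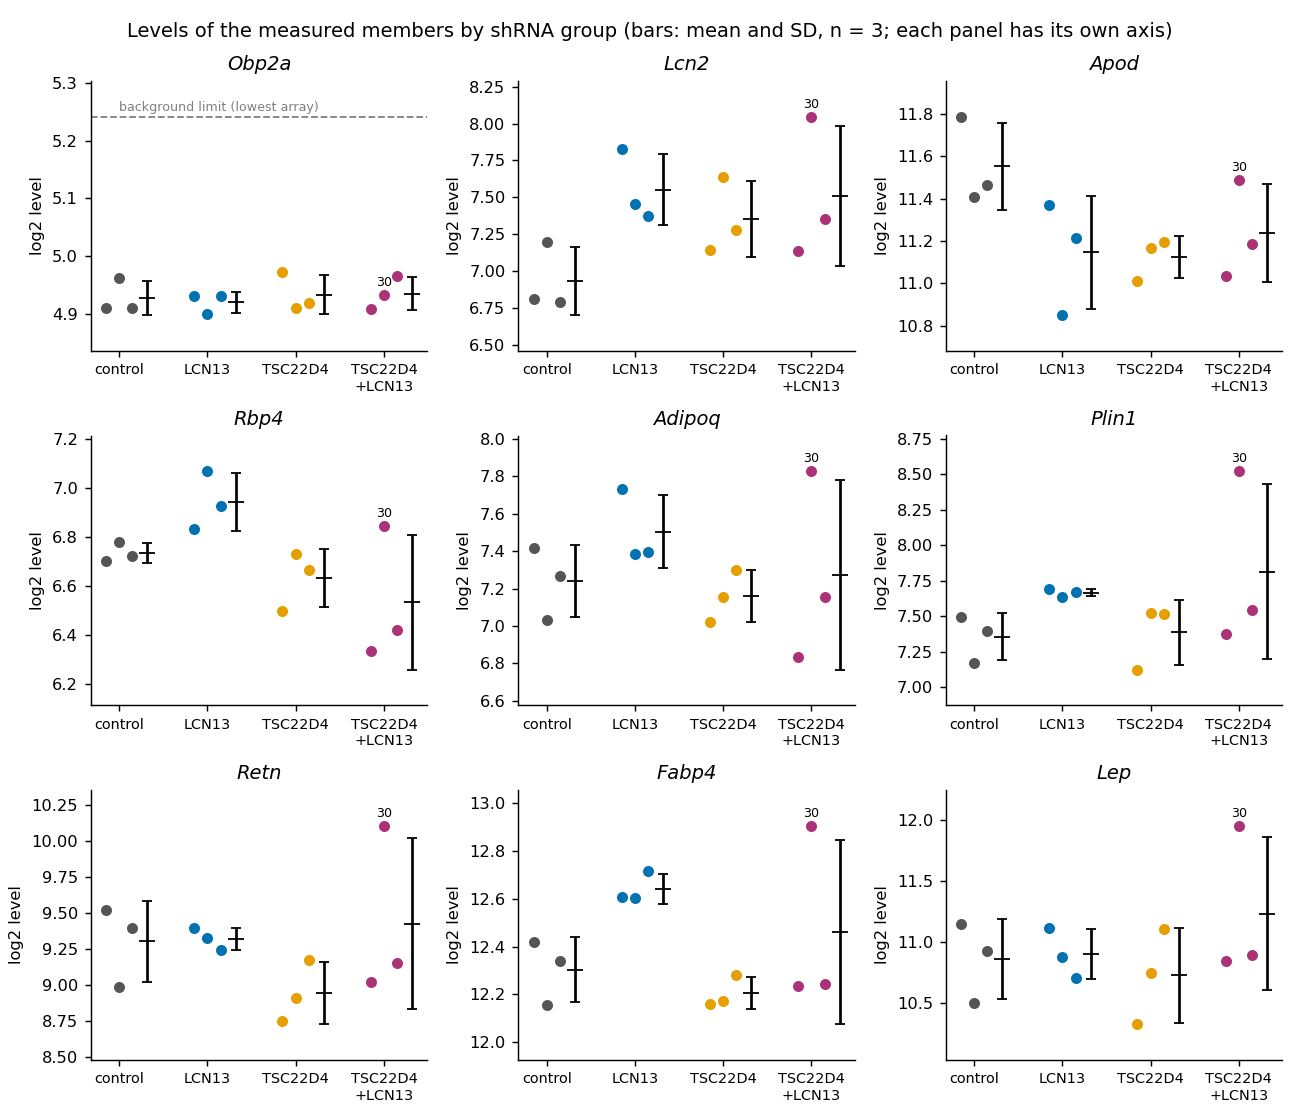
Log2 level of the 9 measured members on each array, by shRNA group, with the mean and SD of 3 arrays beside the points; each panel has its own vertical axis, and the point of TSC22D4+LCN13 animal 30 is numbered. Obp2a lies below the dashed background limit of 5.24 in all groups, and animal 30 is the highest point for Lcn2, Adipoq, Plin1, Retn, Fabp4 and Lep.

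Lcn2 (chr2:32384637-32387739), lipocalin 2, binds bacterial siderophores and is released by neutrophils, adipocytes and many inflamed tissues. It measured 6.81, 7.20 and 6.79 in control animals and 7.83, 7.46 and 7.37 in LCN13 animals. In TSC22D4 animals it measured 7.15, 7.64 and 7.28, and in TSC22D4+LCN13 animals 7.14, 8.05 and 7.35. All 3 LCN13 animals lay above all 3 controls, while the other groups overlapped with their neighbours in the order of the means. Those means ran from 7.55 ± 0.244 (SD, n = 3) in the LCN13 group through 7.51 ± 0.476 in the TSC22D4+LCN13 group and 7.35 ± 0.256 in the TSC22D4 group to 6.93 ± 0.231 in controls. Of 10 neutrophil markers 6 (S100a8, S100a9, Ngp, Camp, Ltf and Retnlg) were below background on all 12 arrays. Mpo and Elane were above it on 2 arrays each, Csf3r on 4 and Cxcr2 on 12, and the part of neutrophils in the Lcn2 level was not tested.

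Apod (chr16:31296192-31314808), apolipoprotein D, is a lipocalin that carries arachidonic acid and steroids and is made by fibroblasts and glia. Control animals had 11.79, 11.41 and 11.46, and LCN13 animals had 11.37, 10.85 and 11.21. TSC22D4 animals had 11.01, 11.17 and 11.20, and TSC22D4+LCN13 animals had 11.04, 11.49 and 11.19. The 3 controls lay above all animals of both single-virus groups and overlapped with the TSC22D4+LCN13 group through animal 30. The means were 11.55 ± 0.205 (SD, n = 3) in controls, 11.24 ± 0.231 in the TSC22D4+LCN13 group, 11.15 ± 0.268 in the LCN13 group and 11.12 ± 0.0986 in the TSC22D4 group.

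Rbp4 (chr19:38116620-38125321), retinol-binding protein 4, carries retinol in blood, is made mainly by liver and also by adipocytes, and circulates bound to transthyretin. Its levels were 6.70, 6.78 and 6.72 in control animals and 6.83, 7.07 and 6.93 in LCN13 animals. They were 6.50, 6.73 and 6.67 in TSC22D4 animals and 6.33, 6.84 and 6.42 in TSC22D4+LCN13 animals. Each LCN13 animal lay above each control, and animals 29 and 32 of the TSC22D4+LCN13 group lay below all 9 animals of the other groups. Animal 30 lay within the range of the LCN13 group. The order of the means was LCN13 (6.94 ± 0.119, SD, n = 3), control (6.73 ± 0.0407), TSC22D4 (6.63 ± 0.119) and TSC22D4+LCN13 (6.53 ± 0.274), and only the first neighbours in this order did not overlap.

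The promoter sequences of Adipoq, Retn and Lep, which code for hormones, are shown as examples. Over the 12 arrays Pearson's r between these 3 genes lay between 0.762 (Adipoq with Lep) and 0.924 (Retn with Lep). With Plin1, another adipocyte member, it lay between 0.808 (Adipoq) and 0.898 (Lep), so the 2 ranges overlapped. The sequences are taken from RefSeq on GRCm38.p6 and give the 250 bases before the annotated start, 5′ to 3′ on the strand of the gene. The windows are chr16:23146286-23146535 (plus strand) for Adipoq, chr8:3655520-3655769 (plus strand) for Retn and chr6:29059971-29060220 (plus strand) for Lep. Capitals mark matches on either strand to 3 motifs: TTGCNNAA, the binding site letters of the C/EBP factors of adipocyte differentiation, TATAA of the TATA box, and CCAAT.
Adipoq: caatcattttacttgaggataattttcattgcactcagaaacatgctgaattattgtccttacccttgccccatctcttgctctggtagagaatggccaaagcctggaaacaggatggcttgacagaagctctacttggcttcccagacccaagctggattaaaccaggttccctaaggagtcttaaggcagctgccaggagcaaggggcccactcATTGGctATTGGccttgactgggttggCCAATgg
Retn: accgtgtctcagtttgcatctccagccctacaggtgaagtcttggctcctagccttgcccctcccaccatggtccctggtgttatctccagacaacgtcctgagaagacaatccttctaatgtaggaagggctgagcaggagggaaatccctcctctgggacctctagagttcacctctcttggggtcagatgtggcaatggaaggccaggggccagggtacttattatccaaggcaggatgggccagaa
Lep: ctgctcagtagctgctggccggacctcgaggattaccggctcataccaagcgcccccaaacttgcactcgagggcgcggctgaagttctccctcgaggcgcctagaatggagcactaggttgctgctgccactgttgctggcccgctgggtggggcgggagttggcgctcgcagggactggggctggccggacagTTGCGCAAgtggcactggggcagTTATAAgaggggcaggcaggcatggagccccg
The Lep window held TTGCNNAA at 55 bases before the start, a match that reads alike on both strands, and TATAA at 31, which overlaps a match of the opposite strand at 32. The Adipoq window held no TTGCNNAA or TATAA and 3 CCAAT matches, at 34, 27 and 7 bases before the start. None of the 3 motifs was in the Retn window. Of 32851 promoter windows of the same length, 9.56% held TTGCNNAA, 22.8% held TATAA and 33.8% held CCAAT, so matches of this kind are common. The Plin1 window, which lies partly within the annotated span of that gene and is not printed, held TTGCNNAA at 187 and 58 bases before the start used.

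Adipoq (chr16:23146536-23157968) codes for adiponectin, a hormone that raises insulin sensitivity in muscle and liver. It measured 7.42, 7.03 and 7.27 in control animals and 7.73, 7.39 and 7.40 in LCN13 animals. Levels in TSC22D4 animals were 7.02, 7.15 and 7.30, and in TSC22D4+LCN13 animals 6.84, 7.83 and 7.16. The TSC22D4+LCN13 group held both the lowest and the highest array, animals 29 and 30, and all 4 groups overlapped with their neighbours in the order of the means. Group means lay between 7.16 ± 0.140 (SD, n = 3) in the TSC22D4 group and 7.50 ± 0.196 in the LCN13 group.

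Retn (chr8:3655770-3659818) codes for resistin, which in mice is secreted by adipocytes and impairs insulin action. Its levels were 9.53, 8.99 and 9.39 in controls and 9.40, 9.33 and 9.24 in LCN13 animals. In TSC22D4 animals they were 8.75, 8.91 and 9.18, and in TSC22D4+LCN13 animals 9.02, 10.11 and 9.15. No group was separated from its neighbours, and animal 30 lay above the other 11 arrays.

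Lep (chr6:29060221-29073876) codes for leptin, the fat-derived hormone whose receptor these mice lack in functional form. It measured 11.15, 10.50 and 10.93 in controls and 11.11, 10.88 and 10.71 in LCN13 animals. Levels in TSC22D4 animals were 10.33, 10.75 and 11.11, and in TSC22D4+LCN13 animals 10.85, 11.95 and 10.89. Its range over the 12 arrays, 1.62 or 3.08-fold, was the widest among the 9 measured members, and its spread within groups (SD 0.415) exceeded that of 99.6% of all genes. Every group overlapped with its neighbours.

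Plin1 (chr7:79721164-79732904) codes for perilipin 1, the coat protein of the adipocyte droplet that gates lipolysis. It measured 7.49, 7.17 and 7.40 in controls and 7.69, 7.64 and 7.67 in LCN13 animals. TSC22D4 animals had 7.12, 7.52 and 7.51, and TSC22D4+LCN13 animals had 7.38, 8.52 and 7.54. The LCN13 animals lay close together (SD 0.0278) and above all controls and all TSC22D4 animals, while the TSC22D4+LCN13 group spanned from within the control range to the highest array.

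Fabp4 (chr3:10204342-10208616) codes for the fatty acid-binding protein of adipocytes, which is also made by macrophages and by capillary endothelium. It measured 12.42, 12.15 and 12.34 in controls and 12.61, 12.60 and 12.71 in LCN13 animals. TSC22D4 animals had 12.16, 12.17 and 12.28, and TSC22D4+LCN13 animals had 12.23, 12.91 and 12.24. The 3 LCN13 animals lay above every control and TSC22D4 animal and above animals 29 and 32, with animal 30 above them. Group means were 12.64 ± 0.0632 (SD, n = 3) in the LCN13 group, 12.46 ± 0.385 in the TSC22D4+LCN13 group, 12.30 ± 0.136 in controls and 12.21 ± 0.0668 in the TSC22D4 group.

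The adipocyte members varied together from animal to animal. Over the 12 arrays Pearson's r of their 10 pairs lay between 0.696 (Fabp4 with Lep) and 0.924 (Retn with Lep), with a median of 0.844. Spearman's rho lay between 0.531 and 0.909. After Benjamini-Hochberg adjustment over the 10 pairs, 10 of 10 Pearson correlations were below 0.05 (largest adjusted permutation p = 0.00988). For Spearman's rho 9 of 10 were, the exception being Plin1 with Lep (adjusted permutation p = 0.0784). After group means were subtracted, r lay between 0.856 and 0.968 with a median of 0.933, and all 10 pairs were below 0.05 in an exact permutation within groups (largest adjusted p = 0.0301). The members thus covaried among animals that had received the same virus.

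**Figure D2:**
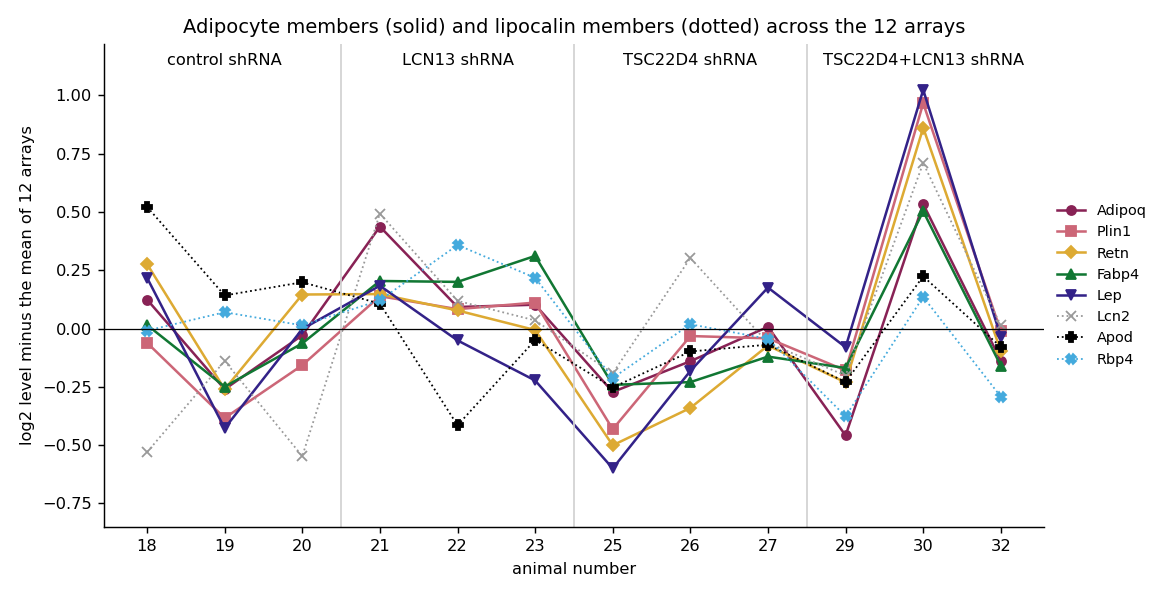
Log2 level of each member minus its mean over 12 arrays, by animal and shRNA group; solid lines are the 5 adipocyte members and dotted lines the 3 lipocalins above background. The solid lines peak together at animal 30 and are low together at animals 19 and 25.

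Animal 30 carried a part of this covariation. Without the 2 arrays farthest from the median of the first gene of a pair, one of which was animal 30 in all 10 pairs, r lay between 0.436 and 0.763 and 3 of 10 pairs were below 0.05 (smallest adjusted permutation p = 0.044, largest 0.209). These 3 were Adipoq with Retn, Adipoq with Fabp4 and Plin1 with Fabp4. The other 7 did not pass over 10 arrays, with r between 0.436 and 0.686, so their calls over the 12 levels rest in part on those arrays. With animal 30 alone left out, r lay between 0.402 and 0.805 over the 11 levels. After subtraction of group means it lay between 0.523 (Adipoq with Fabp4) and 0.946 (Retn with Lep), with a median of 0.807. Retn with Lep was the closest pair by Pearson's r in the levels and after subtraction of group means, with and without animal 30. Adipoq with Fabp4 led by Spearman's rho (0.909), and Plin1 with Fabp4 led without the 2 farthest arrays (0.763).

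The 3 lipocalins above background were set against the adipocyte members in the same way. Over the 15 pairs of a lipocalin with an adipocyte member, Pearson's r lay between 0.201 and 0.725, and 0 of 15 passed after adjustment over 18 pairs, the 3 pairs of lipocalins included (smallest adjusted permutation p = 0.0947). By Spearman's rho 1 pair passed, Lcn2 with Plin1 (rho 0.825, adjusted permutation p = 0.0268). Within groups 2 pairs passed in the exact permutation, Apod with Plin1 (r 0.690, adjusted p = 0.0278) and Apod with Adipoq (r 0.817, adjusted p = 0.049). Without animal 30 the within-group r of Apod with the 5 adipocyte members lay between 0.543 and 0.790, that of Lcn2 between -0.583 and 0.209 and that of Rbp4 between -0.144 and 0.376. Whether the 2 kinds of pair differ was not tested.

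**Figure D3:**
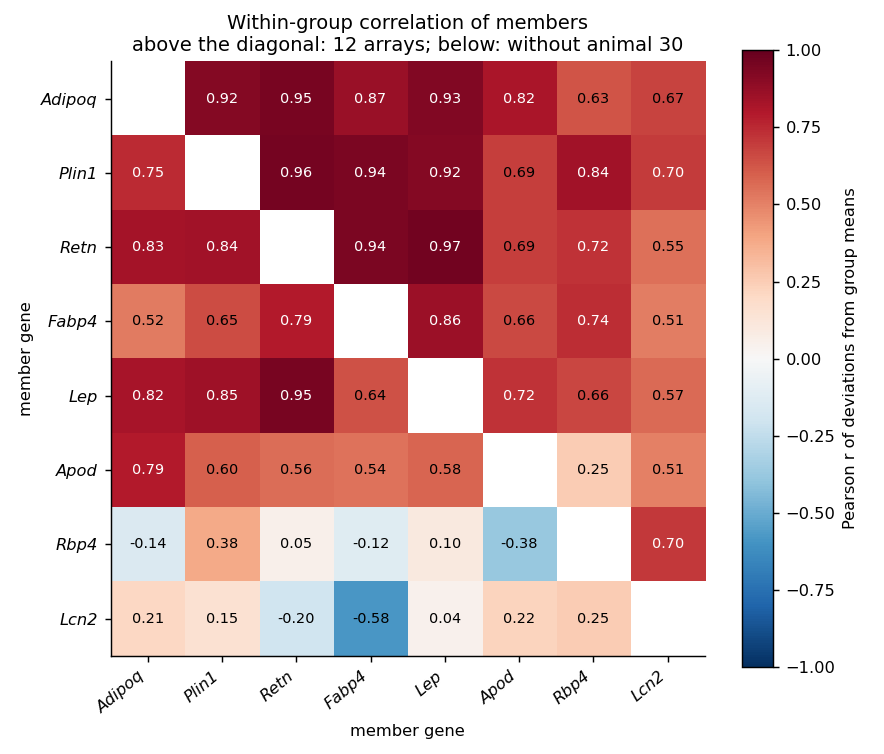
Pearson correlation of log2 levels after subtraction of group means for each pair of members above background, with all 12 arrays above the diagonal and without animal 30 below it. The block of adipocyte members lies between 0.86 and 0.97 above the diagonal and between 0.52 and 0.95 below it, while Lcn2 and Rbp4 lose most of their correlation below it.

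The genes with levels most like those of each member were sought by Pearson's r over the 12 arrays, among 11835 genes above background. They were Prkar2b (r 0.961), Dpep2 (0.952), Cidec (0.945), Heph (0.924) and Retn (0.924) for Lep. For Retn they were Timm10b (0.937), Serinc3 (0.929), Lep (0.924), Dpep2 (0.915) and Prkar2b (0.912). Plin1 was nearest to Pgd (0.959), Fads3 (0.949), Cidec (0.940), Anxa1 (0.932) and Trem2 (0.932). Of the adipocyte members, Lep and Retn alone had another member among their nearest 5. Adipoq was nearest to Sdc4 (0.919), Smoc1 (0.913), Lrg1 (0.912), C4b (0.912) and S100a13 (0.901). Fabp4 was nearest to Sfrp5 (0.958), Rap1b (0.924), Hsp90b1 (0.924), Atl3 (0.914) and Npr3 (0.908). Among the lipocalins no nearest gene was a member. Lcn2 lay nearest to Pmp22 (0.939), Apod to Tlr3 (0.921) and Rbp4 to Leng8 (0.952). All of these values describe the same 12 arrays, so animal 30 enters each of them.

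Other genes typical of adipocytes followed the 5 members in part. Of 20 such genes 19 were measured and 19 were above background on all 12 arrays. Against 9.98% of all genes, 14 of the 19 had their highest level in animal 30. They included Cidec, a droplet fusion protein (12-array range 9.45 to 11.25), Trarg1, a regulator of glucose transporter traffic (6.35 to 8.37), and Lgals12, a droplet lectin (6.02 to 7.72). Pck1, which makes glyceride glycerol in fat (5.49 to 7.35), was among them as well. The median within-group r of the 19 genes with the mean of the adipocyte members was 0.69, and 0.42 without animal 30, against -0.03 and 0.00 over all 23185 genes. This r was above 0 for 17 of the 19, with Thrsp at -0.11 and Hcar1 at -0.06. Without animal 30 it was above 0 for 13. The others were then Hcar1 (-0.52), Pparg (-0.51), Agpat2 (-0.47), Adig (-0.40), Thrsp (-0.32) and Pck1 (-0.16). Genes of brown adipocytes were measured too. Ucp1, the heat-producing uncoupling protein, and Elovl3, a fatty acid elongase, were below background on all 12 arrays, and the median r of the 6 brown adipocyte genes was -0.05, or 0.07 without animal 30.

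Markers of other cell types moved with the adipocyte members on some arrays, and their part in the result was not tested. Of 8 macrophage markers 7 were highest in animal 30, against 9.98% of all genes. The 8 followed the adipocyte members with a median within-group r of 0.83, or 0.50 without animal 30. Their mean level was 6.64 to 6.83 in controls, 6.60 to 6.92 in the LCN13 group, 6.78 to 6.91 in the TSC22D4 group and 6.99 to 7.52 in the TSC22D4+LCN13 group. For 9 markers of fibroblasts and progenitors the median r was 0.68, or 0.38 without animal 30, with a mean level of 9.08 to 9.40 in controls and 9.64 to 9.93 in the LCN13 group. In the TSC22D4 group that level was 9.48 to 9.85, and in the TSC22D4+LCN13 group 9.58 to 10.22. For 11 hepatocyte markers the median r was 0.30, and -0.29 without animal 30. It was 0.02 for 10 endothelial markers and -0.30 without animal 30, 0.12 and -0.04 for 6 tendon markers, and 0.28 and -0.05 for 6 Schwann cell markers. For 8 acute-phase and cytokine genes it was 0.19 and -0.05. For 12 myofibre markers it was -0.21, or -0.29 without animal 30, and their mean deviation in animal 30 was -0.02.

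**Figure D4:**
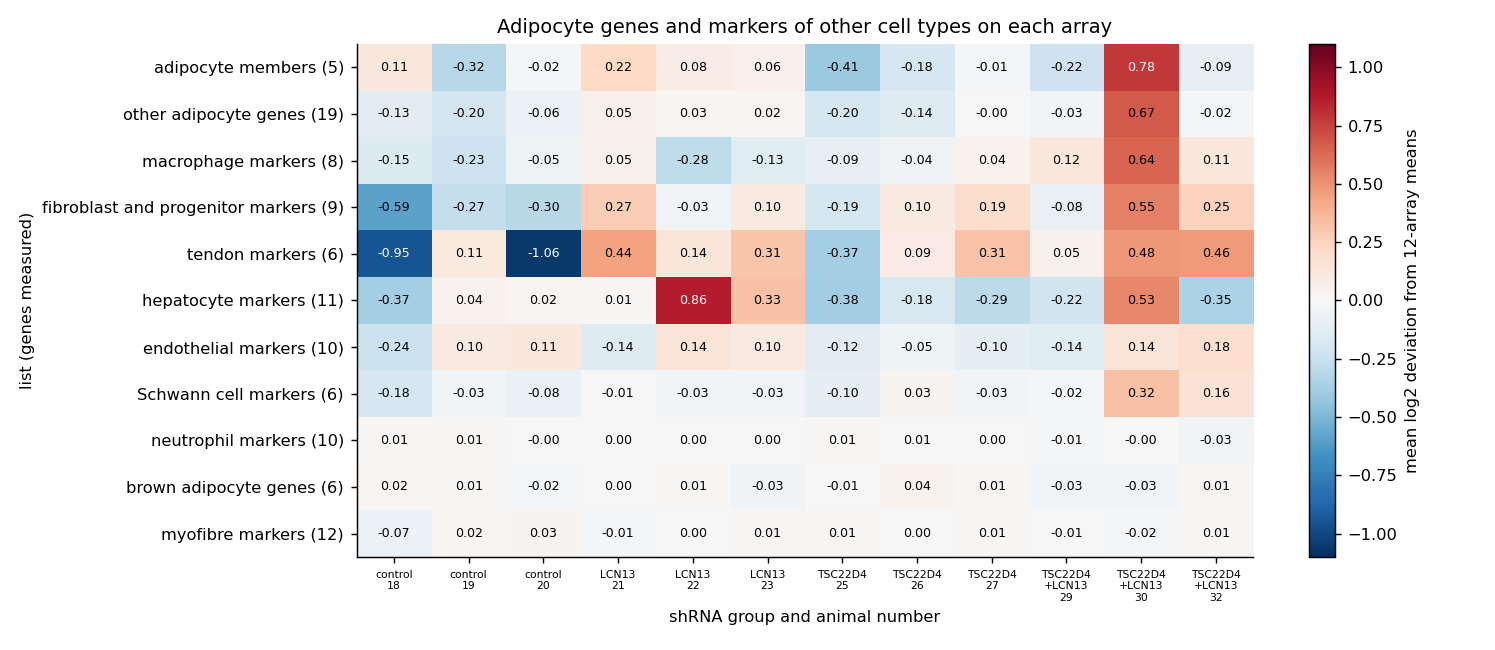
Mean deviation of each gene list from its 12-array mean, in log2 units, on each array, for the adipocyte members and for markers of other cell types; the number of genes measured is in parentheses. Animal 30 is high for adipocyte, macrophage, fibroblast and, at 0.53, hepatocyte genes, and LCN13 animal 22 is highest for hepatocyte markers at 0.86. For tendon markers animal 30 is highest at 0.48, beside 0.46 in animal 32, and control animals 18 and 20 are low.

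LCN13 shRNA was compared with control to ask which muscle transcripts respond to LCN13 virus. No member passed the test. Lcn2 was higher by 0.62 (1.54-fold, SE 0.237, limma adjusted p = 0.304), Fabp4 by 0.34 (1.26-fold, SE 0.156, limma adjusted p = 0.422) and Apod was lower, with a log2 difference of -0.41 (1.33-fold, SE 0.157, limma adjusted p = 0.310). The SE pools the spread of all 4 groups, so animal 30 enters it though it is in neither group compared. For Fabp4 the SD was 0.0632 in the LCN13 group and 0.136 in controls, against 0.385 in the TSC22D4+LCN13 group. With 1 array left out, its limma adjusted p lay between 0.0525 and 0.668. By limma 0 of 9 members passed at an adjusted p below 0.05, against 0.85% of all genes, and 2 of 9 (Lcn2 and Apod) had an unadjusted p below 0.05, against 12.4%. The groups did not overlap for 5 of 9 members, against 18.8% of all genes. These were Lcn2, Rbp4, Plin1 and Fabp4, which were higher in all 3 LCN13 animals (9.74% of all genes were), and Apod, which was lower (9.02%). The adipocyte members had a median difference of 0.27, with 5 of 5 above 0, and the 19 other adipocyte genes one of 0.19 with 15 above 0 and 0 past the test. The median over all genes was 0.00. The 5 members covaried within groups (r 0.856 to 0.968), so counts of them are not counts of separate observations. With 1 array left out the difference ran from -0.14 to 0.13 for Retn and from -0.14 to 0.18 for Lep. For Lep the difference was 0.04, and its 95% interval ran from -0.65 to 0.73.

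Beside these differences, the values of other lists in the same groups were these. Over 9 fibroblast and progenitor markers the median difference was 0.46, with 9 above 0 and 0 past the test. The mean deviation of 6 tendon markers was -0.95 and -1.06 in control animals 18 and 20 and 0.11 in control animal 19, against 0.14 to 0.44 in LCN13 animals. Hepatocyte markers deviated by 0.86 in LCN13 animal 22, which also had the highest Rbp4 level of the 12 arrays, and by 0.01 and 0.33 in LCN13 animals 21 and 23. Alb, the albumin transcript of hepatocytes, measured 11.57 in animal 22, where Ttr, the transthyretin that carries Rbp4 in blood, measured 6.94. The part of these lists in the result was not tested.

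The comparison of TSC22D4 shRNA with control used the same 3 control arrays, so it is not independent of the one above. Apod was lower in all 3 animals, with a log2 difference of -0.43 (1.34-fold, SE 0.157, limma adjusted p = 0.424). Lcn2 differed by 0.42 (SE 0.237, limma adjusted p = 0.673) and Retn by -0.36 (SE 0.259, limma adjusted p = 0.778), with overlapping groups. By limma 0 of 9 members passed, against 0.336% of all genes, and 1 of 9, Apod, had an unadjusted p below 0.05, against 9.26%. Apod was also the 1 of 9 members whose groups did not overlap, against 16.9% of all genes, or 9.15% in the lower direction. The median difference was -0.10 for the 5 adipocyte members and 0.01 for the 19 other adipocyte genes, of which 0 passed.

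The TSC22D4+LCN13 group was compared with control to ask what both viruses did together, again against the same controls. With all arrays, Lcn2 differed by 0.58 (1.49-fold, SE 0.237, limma adjusted p = 0.203), Plin1 by 0.46 (SE 0.253, limma adjusted p = 0.353) and Lep by 0.37 (SE 0.309, limma adjusted p = 0.563). By limma 0 of 9 members passed, against 4.34% of all genes, and 1 of 9, Lcn2, had an unadjusted p below 0.05, against 20.4%. No member had groups that did not overlap, against 23.7% of all genes. Without animal 30, Rbp4 fell by 0.36 on the log2 scale (1.28-fold, SE 0.0801, limma adjusted p = 0.0453). It was then 1 of 9 members past the test, against 4.02% of all genes. The differences of Plin1 and Lep shrank to 0.10 and 0.01, and those of Adipoq, Retn and Fabp4 changed sign. Other lists are given for the same comparison. The median difference was 0.46 over 9 fibroblast and progenitor markers (9 above 0, 9 with an unadjusted limma p below 0.05, 0 past the test) and 0.38 without animal 30. It was 0.87 over 6 tendon markers (6 above 0, 0 past the test) and 0.71 without that animal. Hepatocyte markers deviated by 0.53 in animal 30, against -0.22 and -0.35 in animals 29 and 32, and their median difference was 0.08 with animal 30 and -0.078 without it. The part of these lists in the result was not tested.

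**Figure D5:**
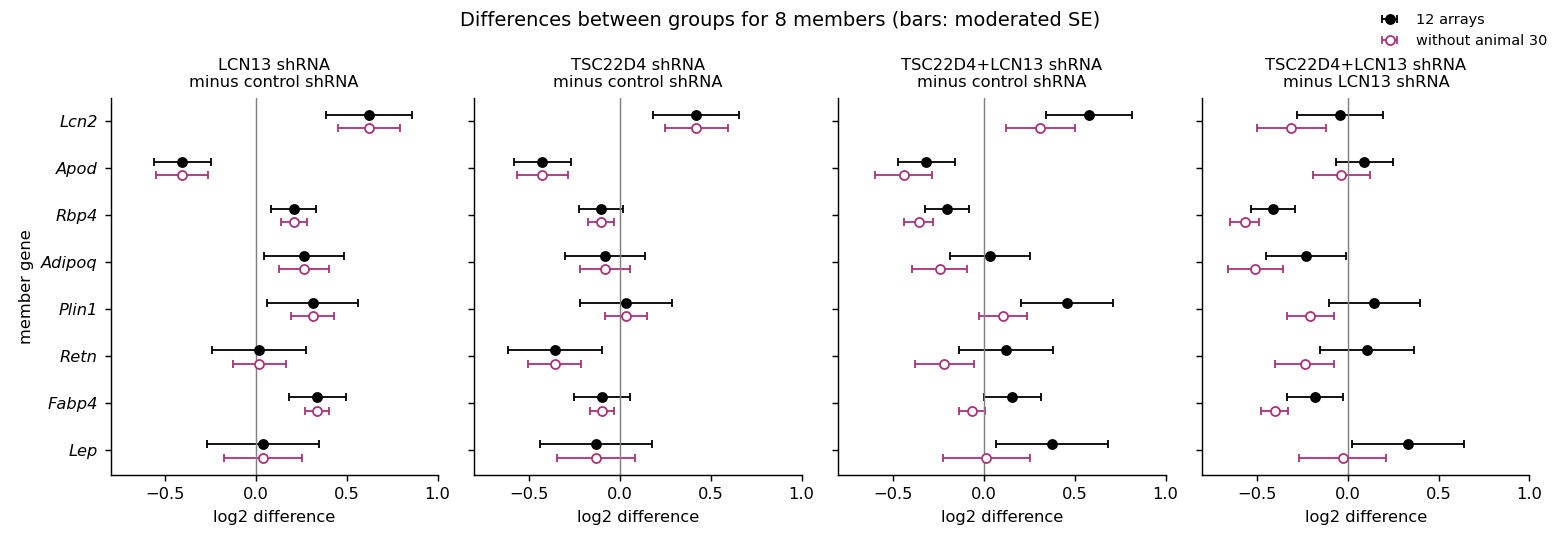
Log2 difference between groups for the 8 members above background in 4 comparisons, with bars of 1 moderated standard error; filled points use 12 arrays and open points leave out animal 30. In the comparisons of the TSC22D4+LCN13 group the open points of the adipocyte members lie lower than the filled ones, and Rbp4 is lowest against the LCN13 group.

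Against the LCN13 group, which differs from it by TSC22D4 virus in place of control virus, the TSC22D4+LCN13 group differed in Rbp4 with the smallest p of the members. The log2 difference was -0.41 (1.33-fold, SE 0.121, limma adjusted p = 0.0908) with all arrays, which did not pass the test. Without animal 30, which leaves 2 arrays in the group, Rbp4 fell by 0.57 (1.48-fold, SE 0.0801, limma adjusted p = 0.00924) and Fabp4 by 0.40 (1.32-fold, SE 0.0739, limma adjusted p = 0.0197). With all arrays Fabp4 had a limma adjusted p of 0.572 (SE 0.156). Fabp4 was among the genes by which animal 30 was set apart, so its call is not independent of that choice. Adipoq differed by -0.51 without that animal (SE 0.153, limma adjusted p = 0.0903). By limma 0 of 9 members passed with all arrays, against 4.21% of all genes, and 1 of 9, Rbp4, had an unadjusted p below 0.05, against 20.9%. Without animal 30, 2 of 9 passed, against 5.69%. No member had non-overlapping groups with all arrays, against 22.6% of all genes. Over 11 hepatocyte markers the median difference in this comparison was -0.37, or -0.49 without animal 30, with 0 past the test in either case, and their part in the result was not tested.

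Against the TSC22D4 group, which differs by LCN13 virus, by limma 0 of 9 members passed and 0 had an unadjusted p below 0.05, where 0% and 10.5% of all genes did. Groups did not overlap for 0 of 9 members, against 14.6% of all genes. Without animal 30, 0 of 9 passed, against 0.00431%. The 5 adipocyte members had a median difference of 0.43 with all arrays and of 0.073 without animal 30. The difference of Lep, for example, was 0.50 (SE 0.309) with it and 0.14 (SE 0.240) without it. Whether the effect of TSC22D4 virus differed with and without LCN13 virus was tested as an interaction. By limma 0 of 9 members passed, against 0.125% of all genes, and 1 of 9, Apod, had an unadjusted p below 0.05, against 9.57%. Its interaction was 0.52 (SE 0.222, limma adjusted p = 0.495). Without animal 30, 0 of 9 passed, against 0.0906%. In the test for any difference among the 4 groups, 0 of 9 members passed with all arrays, against 3.33% of all genes. Of the 9, 1 had an unadjusted p below 0.05, against 20.8%. That was Rbp4, with a limma p of 0.0383 before and 0.209 after adjustment. Without animal 30, Fabp4 (limma adjusted p = 0.0244) and Rbp4 (limma adjusted p = 0.0247) passed, against 4.62% of all genes. Fabp4 was again among the genes by which that animal was set apart.

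Relatives and partners of the members were measured on the same arrays. Of 17 other lipocalins 10 were below background on all 12 arrays, among them Obp2b, Ptgds, the prostaglandin D synthase, and Apom, a carrier of sphingosine phosphate. Lcn5 and Orm1 were above background on all 12 arrays. In the TSC22D4+LCN13 group against the LCN13 group 2 of the 17 passed, against 4.21% of all genes, and 2 without animal 30, against 5.69%. There Lcn5 fell by 0.19 (SE 0.0451, limma adjusted p = 0.0496), and by 0.24 without animal 30 (SE 0.0378, limma adjusted p = 0.0126). Without that animal 1 of the 17, Lcn5, was lower against control as well (log2 difference -0.23, limma adjusted p = 0.0166), where 4.02% of all genes passed. Lcn10 also passed against the LCN13 group (limma adjusted p = 0.0314), but it lay at 5.23 to 5.34, beside the background limit, and below that limit in animals 29 and 30 of the group called lower, so no size is given.

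Of 12 intracellular lipid-binding proteins 1 passed in the TSC22D4+LCN13 group against control, where 4.34% of all genes did. This was Crabp1, which holds retinoic acid in the cytoplasm and rose by 0.90 (1.87-fold, SE 0.206, limma adjusted p = 0.0419). Without animal 30 its difference was 0.98 with a wider error (SE 0.234, limma adjusted p = 0.0551), past the threshold no longer. Crabp2, which delivers retinoic acid to its nuclear receptor, was the 1 of 12 past the test in that group against the LCN13 group. There 4.21% of all genes passed, and 5.69% without animal 30. Crabp2 fell by 0.19 (SE 0.0401, limma adjusted p = 0.0353), and by 0.20 without animal 30 (limma adjusted p = 0.0435). Of 12 lipid droplet genes 1 passed against the LCN13 group, where 4.21% of all genes did. This was Plin3, a perilipin found in most tissues, which rose by 0.68 (1.61-fold, SE 0.148, limma adjusted p = 0.0359). Without animal 30 the difference of Plin3 was 0.69 (SE 0.175, limma adjusted p = 0.0559), as large but not past the threshold. Fitm1, a muscle protein of droplet formation, was the 1 of 12 that passed without that animal, against 5.69% of all genes. It rose by 0.24 (SE 0.0386, limma adjusted p = 0.0136). Against control without that animal Fitm1 was the 1 of 12 past the test too, where 4.02% of all genes passed. Its log2 difference was 0.24 there (limma adjusted p = 0.0138). Pparg, the nuclear receptor that drives fat cell formation, fell by 0.50 against the LCN13 group without animal 30 (SE 0.116, limma adjusted p = 0.0431). There 5.69% of all genes passed. Pparg was the 1 of 19 other adipocyte genes past the test in the pairwise comparisons of the TSC22D4+LCN13 group without that animal. With all arrays 0 of the 19 passed in any pairwise comparison.

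Receptors and partners of these secreted proteins formed another list. Adipor1 and Adipor2, the adiponectin receptors, lay at 11.44 to 11.71 and 9.98 to 10.40, and neither passed in any of the comparisons with all arrays. Lepr, the leptin receptor, was below background on all 12 arrays (5.02 to 5.18). Slc22a17, a receptor of Lcn2, lay at 5.96 to 6.31, and Stra6, the retinol channel that binds Rbp4, at 5.31 to 5.57. In the TSC22D4+LCN13 group against control 0 of the 12 genes passed with all arrays, against 4.34% of all genes, and 1 without animal 30, against 4.02%. That was Cdh13, the T-cadherin that holds adiponectin on muscle and endothelium, which rose by 0.25 (SE 0.0465, limma adjusted p = 0.0242).

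Of 5 measured genes of the alternative complement pathway, to which adipsin belongs, 1 passed in the TSC22D4+LCN13 group. This was Cfp, against control, where 4.34% of all genes passed, and against the LCN13 group, where 4.21% did. Cfp codes for properdin, which stabilises the pathway's convertase and is made by myeloid cells. It was higher by 0.69 against control (1.62-fold, SE 0.153, limma adjusted p = 0.0377) and by 0.66 against the LCN13 group (1.58-fold, SE 0.153, limma adjusted p = 0.0448). Without animal 30 the differences were 0.48 (limma adjusted p = 0.0200) and 0.45 (limma adjusted p = 0.0209), where 4.02% and 5.69% of all genes passed. Of the 8 macrophage markers 2 passed in this group against control, where 4.34% of all genes did, and 1 without animal 30, where 4.02% did. Mrc1, the mannose receptor, rose by 0.81 against control (1.76-fold, SE 0.149, limma adjusted p = 0.0200) and by 0.69 without animal 30 (limma adjusted p = 0.0409). Adgre1, which codes for the F4/80 antigen, rose by 0.49 against control (SE 0.112, limma adjusted p = 0.0405). Without that animal its difference was 0.37 (SE 0.0913, limma adjusted p = 0.0626), which did not pass. Against the LCN13 group 1 of the 8, Adgre1, was higher past the test (limma adjusted p = 0.0472), where 4.21% of all genes passed. Without animal 30, 0 of the 8 passed there, against 5.69%. The part of macrophage content in the levels of Lcn2 and Fabp4 was not tested. Of 10 neutrophil markers 0 passed with all arrays. Without animal 30, 1 passed against the LCN13 group, where 5.69% of all genes did. This was Cxcr2, a chemokine receptor, which fell by 0.17 (SE 0.0403, limma adjusted p = 0.0435).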

How the data were processed

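RNA of gastrocnemius from 12 db/db mice, 3 in each of 4 shRNA groups, was measured on 1 array each. The authors deposited log2 levels per probe set, made with RMA (background correction, quantile normalization and summary by probe set) per the submitters' processing notes, which give no version. The sorted values of the arrays were nearly the same in the deposited table, so a shift of most genes would not be seen. Groups follow the labels, and no batch is given in them. Nothing pairs the animals.

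Of 25206 probe sets 2021 (8.02%) had no single symbol and were left out, which left 23185 genes. Differences were tested with limma 3.58.1 in R 4.3.3 (lmFit and eBayes over all groups, residual df 8, prior df 1.69), with Benjamini-Hochberg adjustment over all 23185 genes and a threshold of 0.05. The limma p-values measure the spread between animals within groups, pooled over all 4 groups of 3 animals. The spread of the TSC22D4+LCN13 group, animal 30 included, thus enters the tests of the other groups as well. The background limit, 95th percentile of 1354 receptor genes, served for description alone. Correlations were tested two-sided with 100000 permutations of the 12 arrays, or exactly over the 1296 rearrangements of arrays within groups. The fit was tested on simulated data. Python 3.11.15, pandas 2.3.3, numpy 2.4.6, scipy 1.17.1 and matplotlib 3.10.9 were used.

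The members and 18 gene lists were chosen with earlier results of these data known. The genes named are the 10 members, up to 4 genes a list past the threshold or otherwise up to 2, of which those without a call are given in counts, and for each member above background the 5 genes with the highest r. Other list genes (Cidec, Trarg1, Lgals12, Pck1, Thrsp, Hcar1, Agpat2, Adig, Alb, Ttr and the receptors with their levels) are named as examples, chosen after their values were seen. Alternatives were all probe sets, genes above the median level, trended robust eBayes, array centring, array weights, the compared groups alone, and each array left out. Leaving out animal 30 for lists and pair correlations was chosen after seeing the data. So was the choice to give the member tests without this animal, out of the fits that left out each array. Cfd was not analysed here.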

Additional observations from a re-analysis of the deposited data

How the results depend on the processing

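The 48 differences of the 8 members above background (6 comparisons each) were recomputed under the alternatives named above. This gave 856 recomputed differences in all. Of these, 821 kept their direction and their side of the threshold, 3 passed the test, and in 32 the sign turned, each time with 1 array left out. The 3 that passed were Rbp4 against control and Rbp4 and Fabp4 against the LCN13 group, without animal 30. Counts of members past the test, 0 with all arrays, ranged with 1 array left out from 0 to 1 for the TSC22D4+LCN13 group against control, and from 0 to 2 both against the LCN13 group and among the 4 groups. The smallest adjusted p of a member over the alternatives was 0.229 for TSC22D4 against control, 0.0525 for LCN13 against control, 0.0453 and 0.00924 for the TSC22D4+LCN13 group against control and LCN13, 0.311 against TSC22D4 and 0.134 for the interaction. The median within-group correlation of the adipocyte members, 0.933, was 0.895 by Spearman's rho and 0.844 without subtraction of group means, and 0.807 to 0.951 with 1 array left out, lowest without animal 30. Members above background were 8 under each of the 4 limits.

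The sign turned in 20 differences, the largest of which was 0.33 with all arrays. With 1 array left out, these ranges were found for TSC22D4 against control: Adipoq -0.18 to 0.0096, Plin1 -0.059 to 0.16 and Lep -0.32 to 0.068. For LCN13 against control they were -0.14 to 0.13 for Retn and -0.14 to 0.18 for Lep. For the TSC22D4+LCN13 group against control they were -0.24 to 0.25 for Adipoq, -0.22 to 0.33 for Retn and -0.065 to 0.27 for Fabp4. Against the TSC22D4 group they were -0.11 to 0.35 for Lcn2, -0.014 to 0.21 for Apod, -0.25 to 0.00098 for Rbp4 and -0.16 to 0.33 for Adipoq. Against the LCN13 group they were -0.31 to 0.15 for Lcn2, -0.057 to 0.20 for Apod, -0.21 to 0.37 for Plin1, -0.24 to 0.31 for Retn and -0.028 to 0.52 for Lep. For the interaction they were -0.43 to 0.068 for Adipoq, -0.24 to 0.33 for Plin1 and -0.30 to 0.031 for Fabp4. The cause was not tested.

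No paired analysis was possible because the animal numbers differ between groups. With 3 arrays a group, differences of the size of the spread between animals were not detectable for these members, and a signal near background, as for Obp2a, bounds nothing about its change.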
